A study of Mus musculus with 9 samples.

Results

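The genes described here are 43 genes of the cell cycle and of DNA replication, chosen by name for what they are known to do, measured in mouse liver. Of these, 41 had at least 1 probe set annotated to them alone, 79 probe sets in all, and the exceptions were Ccnb1 and Cdkn3. The brightest probe set of 28 of them passed the filter on low intensity, among 9225 genes of 12393 in the whole series, and the other 13 lay below it. There were 3 samples in each of 3 groups. The NT-Co samples came from mice without a tumour that received vehicle for 1 week. The T-Co samples came from male BALB/c nu/nu mice, which are athymic. In these mice the human colon cancer TK-4 was placed in the cecal wall at an age of 6 weeks. They received vehicle for 1 week from day 7 after implantation. The T-TSU samples came from such tumour-bearing mice given TSU68, an oral inhibitor of receptor tyrosine kinases, at 400 mg/kg per day for 1 week from day 7 after implantation. For the mice without a tumour, strain, sex and age are not stated apart, and for no group are the hour of collection and the feeding state. The labels number the samples and do not state that each is its own animal, so the spread behind each p-value may be technical.

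A cell enters division when D-type and E-type cyclins, bound to their kinases, release E2F factors that switch on the genes of DNA synthesis. Before synthesis, the Mcm2 to Mcm7 proteins are loaded on DNA as a ring that later unwinds it. Cyclins A and B with Cdk1 then drive mitosis, in which Aurora and Polo kinases and the Bub and Mad checkpoint proteins guide the chromosomes. Hepatocytes of the adult liver are mostly quiescent, yet can re-enter the cycle after injury or loss of tissue.

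Array medians lay between 108 and 120.1, and 0 pairs of arrays were identical. The beta-actin probe sets near the 3' and 5' ends, whose ratio reflects RNA integrity and labelling, gave 2.26 to 3.14 on NT-Co arrays, 1.88 to 2.10 on T-Co arrays and 1.79 to 2.16 on T-TSU arrays, so NT-Co lay above both other groups. The same ratio of Gapdh did not separate them, at 0.736 to 0.798 on NT-Co arrays, 0.734 to 0.809 on T-Co arrays and 0.707 to 0.851 on T-TSU arrays. The hepatocyte markers, of which 11 of 12 had a probe set and all 11 passed the filter, summed to 245746 to 276568 on NT-Co arrays, 305739 to 317360.0 on T-Co arrays and 247987 to 279054 on T-TSU arrays.

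Few members passed the test, a moderated linear model fitted with limma to all probe sets with a threshold of 0.05 on the adjusted p. Between T-Co and NT-Co, which sets liver with a tumour elsewhere in the body against liver without one, 1 of 28 rose (Ccne2) and 1 fell (Mcm7). Of all genes tested 6.32% were called, 3.56% rising and 2.76% falling. Between T-TSU and NT-Co 1 rose (Tk1) and 1 fell (Mcm7), with 3.61% of all genes called, 2.06% rising and 1.55% falling. Between T-TSU and T-Co, which sets drug against vehicle in tumour-bearing mice, limma called 0 of 28, with 0.0542% of all genes called. There an unadjusted p under 0.05 was found for 3 of 28, and for 1057 of all 9225 genes. By an F test over the 3 groups Tk1 and Mcm7 passed, 2 of 28, with 5.56% of all genes called. The 2 calls of 28, 7.14% in each comparison with NT-Co, are a share near that of all genes in T-Co and above it in T-TSU, where it rests on 2 genes. The T-Co count includes Ccne2, which passed the filter clearly only through the groups in which it is high. The members' median log2 difference was -0.03 in T-Co against NT-Co, 0.05 in T-TSU against T-Co and 0.07 in T-TSU against NT-Co, where all genes had -0.02, 0.00 and -0.01. The medians were thus near those of all genes, with members' differences in both directions. Each pair of these comparisons shares the arrays of 1 group.

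**Figure D1:**
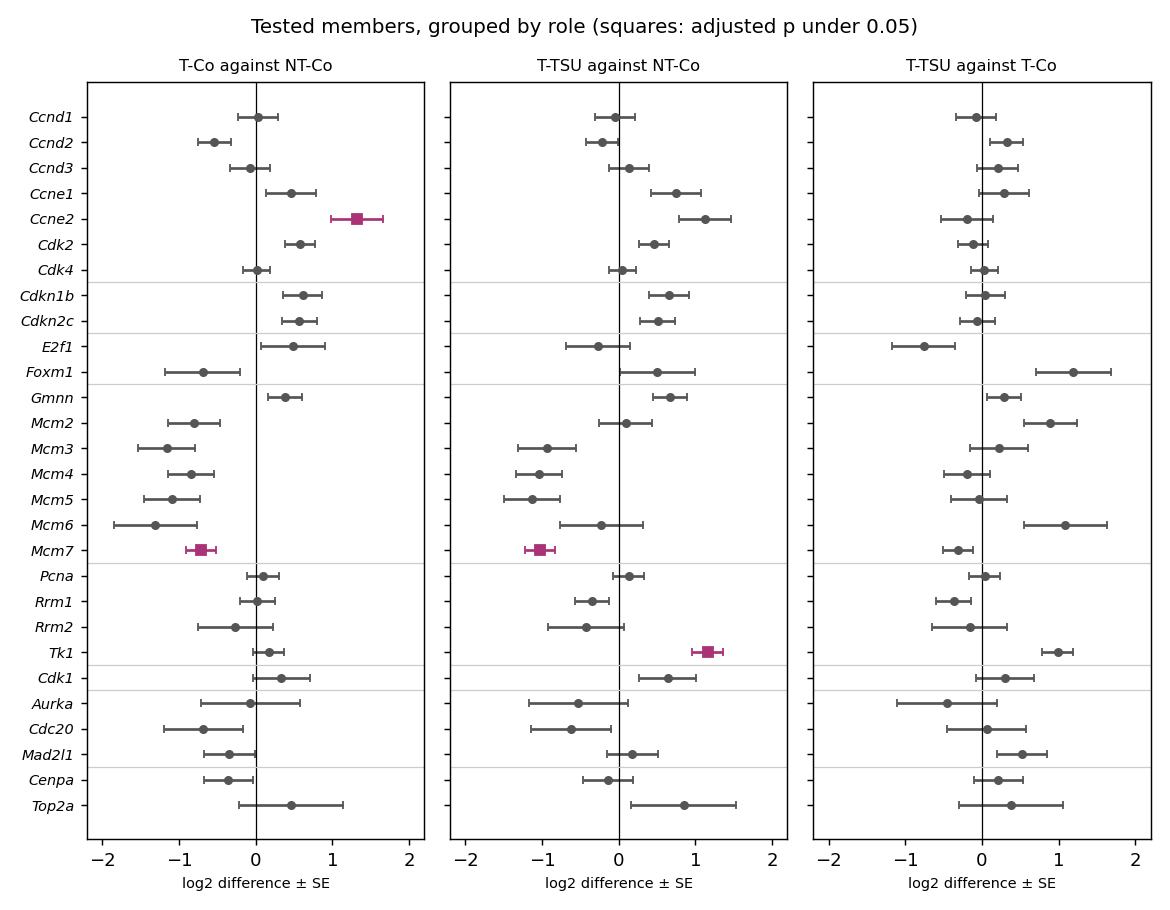
Log2 difference of the 28 tested members, 1 line per gene and grouped by role, in the 3 comparisons (3 arrays a group). Bars are the SE of the limma fit and squares mark an adjusted p under 0.05. All 6 Mcm genes lie left of 0 in T-Co against NT-Co, where Ccne2 is farthest right at 1.32, and Tk1 is farthest right in T-TSU against NT-Co at 1.16.

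The helicase genes Mcm2 to Mcm7 shared a direction in T-Co. All 6 had negative differences in T-Co against NT-Co, from -1.31 to -0.72 on the log2 scale with a median of -0.97, and 1 of them, Mcm7, passed. In T-TSU against NT-Co 5 of 6 were below 0, with a median of -0.98, and again Mcm7 alone passed. For 5 of 6 every T-Co array lay below every NT-Co array, as for 13.7% of all genes. For 4 of 6 every T-TSU array did, as for 12.5% of all genes. Among the 5 wholly lower in T-Co is Mcm6, at -1.31, whose T-Co arrays all read below the filter. Without its 1 bright NT-Co array Mcm6 was at -0.65. Of the 12 tested probe sets of these genes, which are not independent within a gene, 7 were wholly lower in T-Co (12.5% of all probe sets) and 8 in T-TSU (11.6%). In whole liver, fewer cells of a kind and less RNA per cell cannot be told apart.

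E2F factors are known to act on promoters of Mcm genes, so start-site windows of 300 bases (250 before to 50 after the start, RefSeq, GRCm38.p6) were searched on both strands for the E2F site in the forms TTTCCCGC, TTTCGCGC, TTTGCCGC and TTTGGCGC. These forms can overlap each other on opposite strands. Windows were at hand for 34 members, among them 5 of the 6 Mcm genes and not Mcm4. A match was in 7 of 37 windows of members (18.9%), in 4 of 6 windows of the Mcm genes (66.7%) and in 2.26% of all 32851 windows. The CHR element of mitotic promoters, TTTGAA or TTCGAA, was in 40.5% of the members' windows and 19.2% of all windows. The CCAAT box, CCAAT, was in 73.0% of the members' windows and 37.4% of all windows. A match describes the letters and is not a shown binding site. The windows of Mcm3, Mcm5, Mcm6 and Mcm7 that hold a match are printed because these genes share the E2F letters, with the matches in capitals. That of Tk1, the member called in T-TSU, holds 0 matches and is printed as well. Cdk2, with higher values in both tumour-bearing groups, Cdk1 and Cdc6 also hold a match each, and Mcm2 holds none. Whether the letters bear on the values was not tested.
Mcm3 (chr1:20820263-20820562, minus strand): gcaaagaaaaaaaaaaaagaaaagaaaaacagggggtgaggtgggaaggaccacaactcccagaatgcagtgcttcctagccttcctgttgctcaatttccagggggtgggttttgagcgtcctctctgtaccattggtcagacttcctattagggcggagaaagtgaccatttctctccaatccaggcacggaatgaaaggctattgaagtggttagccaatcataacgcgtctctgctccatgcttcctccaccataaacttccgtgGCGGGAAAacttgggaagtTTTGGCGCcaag
Mcm5 (chr8:75109259-75109558, plus strand): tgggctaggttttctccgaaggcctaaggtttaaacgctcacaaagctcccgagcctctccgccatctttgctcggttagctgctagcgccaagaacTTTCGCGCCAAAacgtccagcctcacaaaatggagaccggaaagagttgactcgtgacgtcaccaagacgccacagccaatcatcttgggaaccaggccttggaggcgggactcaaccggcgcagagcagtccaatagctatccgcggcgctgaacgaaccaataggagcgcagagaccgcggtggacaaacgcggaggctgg
Mcm6 (chr1:128359656-128359955, minus strand): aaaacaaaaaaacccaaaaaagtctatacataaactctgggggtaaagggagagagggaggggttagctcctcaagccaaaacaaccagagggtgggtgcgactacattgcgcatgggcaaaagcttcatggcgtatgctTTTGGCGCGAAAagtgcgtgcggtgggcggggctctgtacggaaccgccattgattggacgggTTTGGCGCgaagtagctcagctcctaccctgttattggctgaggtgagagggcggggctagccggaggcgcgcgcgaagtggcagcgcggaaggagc
Mcm7 (chr5:138171834-138172133, minus strand): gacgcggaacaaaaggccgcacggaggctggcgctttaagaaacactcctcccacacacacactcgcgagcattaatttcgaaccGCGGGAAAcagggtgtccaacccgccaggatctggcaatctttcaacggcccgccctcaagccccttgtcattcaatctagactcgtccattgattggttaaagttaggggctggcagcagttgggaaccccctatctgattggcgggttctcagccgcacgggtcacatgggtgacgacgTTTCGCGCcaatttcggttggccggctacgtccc
Tk1 (chr11:117825965-117826264, minus strand): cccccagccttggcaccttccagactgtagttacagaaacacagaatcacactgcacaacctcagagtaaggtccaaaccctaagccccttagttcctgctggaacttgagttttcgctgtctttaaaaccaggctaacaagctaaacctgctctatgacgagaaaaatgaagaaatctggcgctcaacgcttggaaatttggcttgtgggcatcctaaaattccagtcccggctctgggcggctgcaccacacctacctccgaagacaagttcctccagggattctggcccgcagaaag

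Mcm7, the brightest of these probe sets, had intensities of 706, 657 and 1003 on the NT-Co arrays, 485, 381 and 554 on the T-Co arrays and 404, 359.5 and 365 on the T-TSU arrays. Every array of both tumour-bearing groups was below every NT-Co array, and the T-TSU arrays lay closest together. Mcm7 fell by 0.72 ± 0.20 (SE) in T-Co (1.65-fold, limma adjusted p = 0.0481) and by 1.03 ± 0.20 in T-TSU (2.04-fold, adjusted p = 0.0119). Its other 3 probe sets differed in T-Co by -0.80 ± 0.21 (adjusted p = 0.0439), -0.62 ± 0.28 (0.214) and -0.35 ± 0.26 (0.490). In T-TSU the same probe sets differed by -0.69 ± 0.21 (adjusted p = 0.106), -1.04 ± 0.28 (0.0601) and -1.004 ± 0.26 (0.0547). All 4 were below NT-Co in both groups. The T-Co call was lost under 11 of 19 alternatives on the same probe set, among them leaving out NT-Co replicate 8 (0.0958), 10 (0.0523) or 11 (0.196), T-Co replicate 9 (0.0794) or 10 (0.121) and T-TSU replicate 2 (0.0584), 12 (0.0607) or 14 (0.0683). It was also lost without the filter (0.0584), without the intensity trend (0.0982) and with the arrays of the 2 groups only (0.0814). The T-TSU call was lost under 4 of 19, without NT-Co replicate 11 (0.0592), T-TSU replicate 12 (0.0502) or T-TSU replicate 14 (0.0535) and without the intensity trend (0.0509).

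Mcm3, Mcm4 and Mcm5, whose products sit in the same ring, had the same arrangement of groups without a call. Mcm5 had intensities of 117, 98.5 and 133 on the NT-Co arrays, 61.4, 67.7 and 28.9 on the T-Co arrays and 42.4, 43.1 and 61.3 on the T-TSU arrays. Mcm4 had 175, 141 and 142 on the NT-Co arrays, 104, 67.9 and 75.0 on the T-Co arrays and 102, 51.7 and 63.8 on the T-TSU arrays. Mcm3 had 109.8, 62.6 and 112 on the NT-Co arrays, 41.9, 38.9 and 30.2 on the T-Co arrays and 50.2, 39.8 and 43.3 on the T-TSU arrays. For each of the 3 genes both tumour-bearing groups were wholly below NT-Co on these brightest probe sets. A second probe set of Mcm4 was at -1.25 ± 0.41 in T-Co (limma adjusted p = 0.0959), with T-Co and NT-Co arrays overlapping. A second tested probe set of Mcm3 had an adjusted p of 0.803 by the F test over the 3 groups, against 0.151 for the first. The differences of Mcm5 were -1.09 ± 0.37 in T-Co (limma adjusted p = 0.0986) and -1.13 ± 0.37 in T-TSU (0.121). Those of Mcm4 were -0.84 ± 0.30 (adjusted p = 0.122) and -1.04 ± 0.30 (0.0857). Those of Mcm3 were -1.16 ± 0.37 (adjusted p = 0.0877) and -0.93 ± 0.37 (0.222). Mcm3 passed in T-Co without the intensity trend (0.0374) and Mcm4 in T-TSU with array weights (0.0482).

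Mcm2 and Mcm6 were low in T-Co and nearer NT-Co in T-TSU. Mcm2 had intensities of 200.2, 98.6 and 152 on the NT-Co arrays, 81.8, 102 and 59.4 on the T-Co arrays and 239.8, 141 and 108 on the T-TSU arrays. Mcm6 had 54.3, 39.1 and 204 on the NT-Co arrays, 22.6, 34.2 and 23.6 on the T-Co arrays and 70.8, 87.4 and 43.8 on the T-TSU arrays. In both genes every T-TSU array exceeded every T-Co array, as in 7.08% of all genes. The T-TSU minus T-Co differences were 0.89 ± 0.34 for Mcm2 (limma adjusted p = 0.387) and 1.09 ± 0.54 for Mcm6 (0.513), and neither was called. Against NT-Co the T-Co differences were -0.81 ± 0.34 for Mcm2 (adjusted p = 0.190) and -1.31 ± 0.54 for Mcm6 (0.178). A second probe set of Mcm2 was at -1.05 ± 0.54 in T-Co and at -0.54 ± 0.54 in T-TSU against NT-Co, where the first was at 0.09 in T-TSU. Leaving out NT-Co replicate 11, the one bright array of Mcm6, took the T-Co difference of Mcm6 to -0.65. Its T-TSU against NT-Co difference then turned from -0.23 to 0.43.

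Averaged over the 6 genes, the log2 level relative to the NT-Co mean was -0.41 to 0.35 on the NT-Co arrays, -0.86 to -0.49 on the T-TSU arrays and -1.19 to -0.88 on the T-Co arrays. T-TSU lay between the others in this mean, with almost no gap to T-Co and a small gap to NT-Co. Mcm2 and Mcm6 carried most of its distance from T-Co. For Mcm4, Mcm5 and Mcm7 the T-TSU minus T-Co differences were below 0, at -0.19 ± 0.30, -0.04 ± 0.37 and -0.31 ± 0.20. That of Mcm3 was 0.23. No test was made of the mean over the 6 genes, since the genes were chosen with earlier results known.

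**Figure D2:**
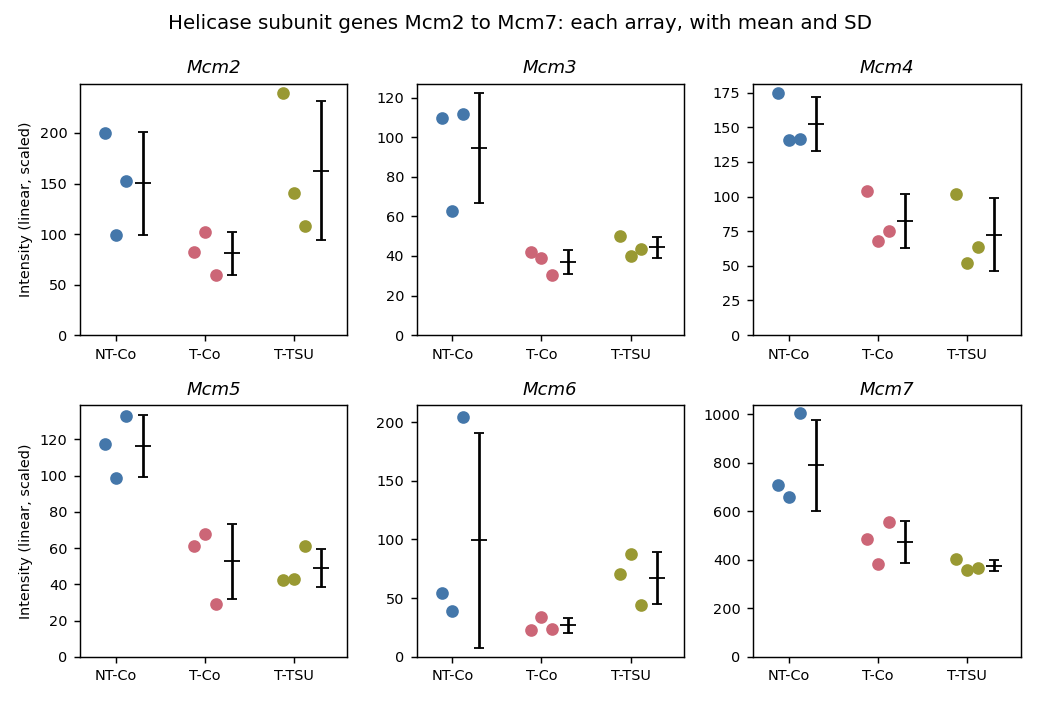
Linear scaled intensity of Mcm2 to Mcm7 (brightest probe set), 1 point per array by group, with mean and SD (n = 3). Mcm3, Mcm4, Mcm5 and Mcm7 are lower on every T-Co and T-TSU array than on any NT-Co array, while the T-TSU arrays of Mcm2 and Mcm6 overlap with NT-Co.

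Some other measures differed between the same groups. The beta-actin ratio was higher in NT-Co than in either other group and the Gapdh ratio was not, as given above. The markers of erythroid precursors, dividing cells of blood-forming tissue, had 8 of 13 genes with a probe set and 5 above the filter, and summed to 3879 to 4282 on NT-Co arrays, 2675 to 3261 on T-Co arrays and 3339.8 to 3665 on T-TSU arrays. Most of this sum was Alas2, of haem synthesis (1925 to 2355 in NT-Co, 276 to 1016 in T-Co and 1142 to 2120.1 in T-TSU), and the transferrin receptor Tfrc, while Hba-a1, Epb42 and Rhag lay below the filter. Of the 5 tested, 1, Alas2, fell by 1.84 ± 0.38 in T-Co (limma adjusted p = 0.0137), and 0 were called in T-TSU against NT-Co. Tfrc was at 0.20 ± 0.24 in T-Co. The stellate cell and fibroblast markers, 10 of 10 with a probe set and 9 above the filter, summed to 8402 to 9427 on NT-Co arrays, 7374 to 7735 on T-Co arrays and 7955 to 9457 on T-TSU arrays, so T-Co was lower and T-TSU overlapped NT-Co. Of the 9, 1, Col3a1, fell by 1.03 ± 0.20 in T-Co (adjusted p = 0.0101), while Des was at 1.05 ± 0.60 and Lrat at 0.88 ± 0.42. The part of these measures in the Mcm values was not tested.

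Among the genes of the fork and of nucleotide supply, Tk1 rose with TSU68 relative to mice without a tumour. Tk1 encodes cytosolic thymidine kinase, which makes a DNA precursor by salvage of thymidine. Tk1 had intensities of 323, 247 and 326 on the NT-Co arrays, 258, 384 and 376 on the T-Co arrays and 794, 613 and 621 on the T-TSU arrays. All T-TSU arrays lay above all other arrays, and NT-Co and T-Co overlapped. Tk1 rose by 1.16 ± 0.20 in T-TSU against NT-Co (2.23-fold, limma adjusted p = 0.00744), and passed under 19 of 19 alternatives on this probe set. Against T-Co the difference was 0.99 ± 0.20 (adjusted p = 0.129, 0.0698 to 0.375 over the alternatives), which was not called. T-Co differed from NT-Co by 0.17 ± 0.20 (adjusted p = 0.686). The Kupffer cell and macrophage markers, 13 of 14 with a probe set and all 13 above the filter, summed to 8907 to 12551 on NT-Co arrays, 12499.7 to 19014 on T-Co arrays and 5633 to 12192 on T-TSU arrays. The 12 sinusoidal and vascular endothelial markers, all above the filter, summed to 2443 to 3239 on NT-Co arrays, 2950 to 4689 on T-Co arrays and 2053 to 2925 on T-TSU arrays. Both sums lay wholly lower in T-TSU than in T-Co, as did the hepatocyte sum. The stellate cell and erythroid sums given above lay wholly higher. By gene, 13 of 13 Kupffer cell, 10 of 11 hepatocyte and 9 of 12 endothelial markers were lower in T-TSU than in T-Co, with Tie1 higher by 1.18 ± 0.50. Of the tested stellate cell markers 7 of 9 were higher. Of the erythroid markers only 2 of 5 were, with Alas2 at 1.52 ± 0.38 and Tfrc at -0.45 ± 0.24. The part of these sums in the Tk1 values was not tested.

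The other tested genes of this role, Pcna, Rrm1 and Rrm2, had overlapping groups in every comparison on their brightest probe sets. Pcna, the sliding clamp of the polymerases, had 808, 1002 and 1026 on the NT-Co arrays, 1203, 689 and 1216 on the T-Co arrays and 1025, 949 and 1115 on the T-TSU arrays, and differed from NT-Co by 0.09 ± 0.21 with vehicle and 0.13 ± 0.21 with TSU68 (limma adjusted p = 0.845 and 0.836). Pcna was thus bright and its groups overlapped. Rrm1, the large subunit of ribonucleotide reductase, had 143, 141 and 169.9 on the NT-Co arrays, 154, 149 and 157 on the T-Co arrays and 105, 101 and 150.1 on the T-TSU arrays, and T-TSU differed from NT-Co by -0.35 ± 0.22 (adjusted p = 0.498). Rrm2, the small subunit, had 79.1, 25.0 and 98.1 on the NT-Co arrays, 65.6, 29.9 and 55.1 on the T-Co arrays and 47.4, 42.6 and 37.0 on the T-TSU arrays, with overlapping groups. Tyms, thymidylate synthase, lay below the filter.

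Among the cyclins and kinases of entry into the cycle, Ccne2 rose in T-Co. It encodes cyclin E2, a partner of Cdk2, and has 1 probe set here. Ccne2 had intensities of 40.5, 22.9 and 48.9 on the NT-Co arrays, 108, 89.4 and 109.8 on the T-Co arrays and 108, 81.4 and 77.0 on the T-TSU arrays. Both tumour-bearing groups lay wholly above NT-Co, whose values lay on both sides of the filter near 36.2. Ccne2 thus passed the filter clearly only through the groups in which it is high. The rise was 1.32 ± 0.34 in T-Co (2.50-fold, limma adjusted p = 0.0371), and the difference of 1.12 ± 0.34 in T-TSU was not called (0.0939). The T-Co call was lost under 9 of 18 alternatives: leaving out NT-Co replicate 8 (0.0767), 10 (0.0959) or 11 (0.0545), T-Co replicate 9 (0.0871), 10 (0.0593) or 13 (0.105), or T-TSU replicate 14 (0.0545), without the filter (0.0670) and with the arrays of the 2 groups only (0.0758).

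Cdk2, the kinase partner, had 164, 151 and 170.2 on the NT-Co arrays, 218, 287 and 234 on the T-Co arrays and 253, 191 and 237 on the T-TSU arrays. It was also wholly higher in both tumour-bearing groups, with differences of 0.57 ± 0.19 for T-Co (limma adjusted p = 0.103) and 0.46 ± 0.19 for T-TSU (0.252) that were not called. Ccne1, cyclin E1, had 137, 57.3 and 78.4 on the NT-Co arrays, 115, 167 and 90.8 on the T-Co arrays and 158, 127 and 163 on the T-TSU arrays, with overlapping groups and a difference of 0.75 ± 0.32 in T-TSU against NT-Co (adjusted p = 0.267). The beta-actin ratio, but not that of Gapdh, separated the same groups as Ccne2 and Cdk2, and its part in these values was not tested. Over all 28 tested members, 11 had groups apart in T-Co against NT-Co, 5 higher and 6 lower, where 26.7% of all genes were apart, 12.9% higher and 13.7% lower. These 11 are 39.3% of the members tested. In T-TSU against NT-Co 12 were apart, 42.9% (24.1% of all genes) and in T-TSU against T-Co 5 (14.6%).

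The D-type cyclins, which answer to growth signals, had no call. Ccnd1 had 220.4, 180.1 and 292 on the NT-Co arrays, 316, 209 and 186 on the T-Co arrays and 219.9, 280.0 and 171 on the T-TSU arrays, so its groups overlapped, with 0.03 ± 0.26 in T-Co (limma adjusted p = 0.966), and another probe set gave -0.39 ± 0.72. Ccnd2 had 229, 217 and 219 on the NT-Co arrays, 194, 145 and 119.5 on the T-Co arrays and 203, 194 and 172 on the T-TSU arrays. Every tumour-bearing sample was below NT-Co on this probe set of Ccnd2, with -0.54 ± 0.21 in T-Co (adjusted p = 0.157) and -0.22 ± 0.21 in T-TSU (0.692), and another probe set was at 0.45 ± 0.43 in T-TSU. Ccnd3 had 612, 642 and 542 on the NT-Co arrays, 677, 807 and 335 on the T-Co arrays and 576, 732 and 670.3 on the T-TSU arrays. Cdk4, the kinase of these cyclins, had 342, 289.9 and 331 on the NT-Co arrays, 352, 330.1 and 289.7 on the T-Co arrays and 394, 287 and 320.2 on the T-TSU arrays. The groups of both overlapped on these probe sets. A second probe set of Cdk4 was wholly lower in T-Co, by -0.47 ± 0.18 (adjusted p = 0.154), and in T-TSU, by -0.41 ± 0.18 (0.274), and another in T-TSU, by -0.40 ± 0.18 (0.285), without a call.

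Cdkn1b and Cdkn2c, the tested kinase inhibitors among the members, and Gmnn had higher means with a tumour and no call. Cdkn1b encodes p27, which holds Cdk2 inactive in resting cells. Cdkn1b had 205, 158 and 133 on the NT-Co arrays, 187, 259 and 333 on the T-Co arrays and 272, 202 and 324 on the T-TSU arrays, with overlapping groups and differences of 0.61 ± 0.26 for T-Co (limma adjusted p = 0.189) and 0.66 ± 0.26 for T-TSU (0.213). Cdkn2c, encoding the Cdk4 inhibitor p18, had 138, 146 and 109 on the NT-Co arrays, 215, 174 and 203 on the T-Co arrays and 168, 246 and 162 on the T-TSU arrays. It was wholly higher in both tumour-bearing groups, with 0.57 ± 0.23 (adjusted p = 0.164) and 0.51 ± 0.23 (0.278). Gmnn encodes geminin, which blocks a further round of Mcm loading. Gmnn had 293, 281 and 179 on the NT-Co arrays, 308, 366 and 299.8 on the T-Co arrays and 492, 375 and 335 on the T-TSU arrays, again wholly higher in both groups, with 0.39 ± 0.22 (adjusted p = 0.337) and 0.67 ± 0.22 (0.130). Between T-TSU and T-Co these 3 genes differed by 0.05 ± 0.26, -0.06 ± 0.23 and 0.28 ± 0.22 in the order given, without a call.

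**Figure D3:**
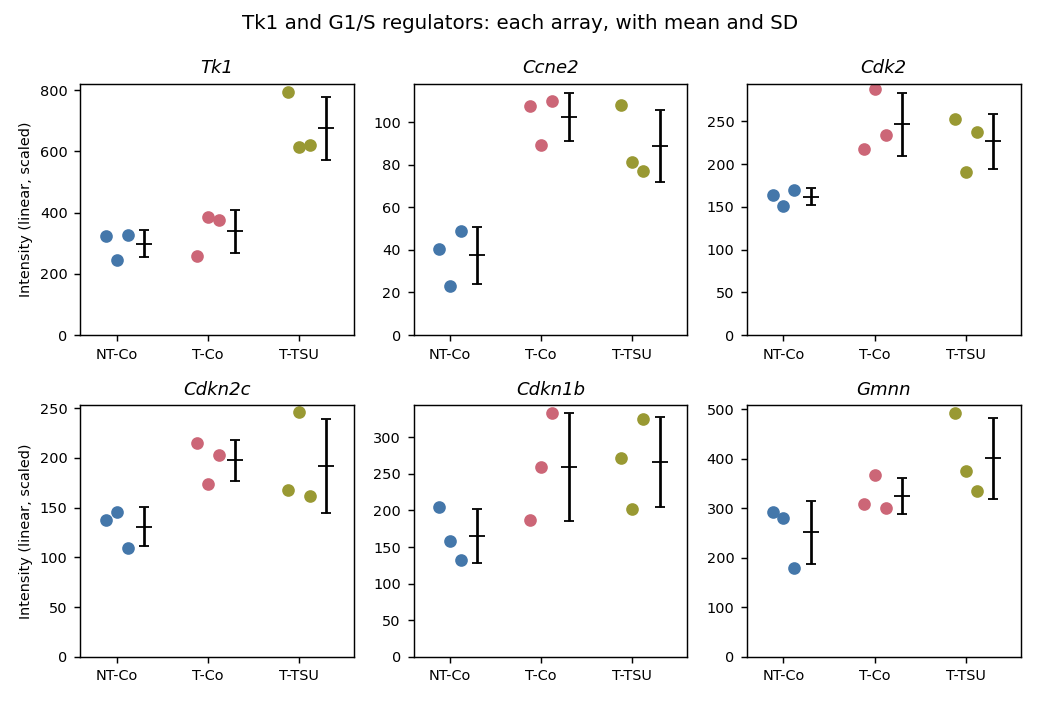
Linear scaled intensity of Tk1, Ccne2, Cdk2, Cdkn2c, Cdkn1b and Gmnn (brightest probe set), 1 point per array by group, with mean and SD (n = 3). Tk1 stands at 613 to 794 in T-TSU, above every other array, while Ccne2, Cdk2, Cdkn2c and Gmnn are higher on all tumour-bearing arrays than on any NT-Co array.

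The transcription factors of proliferation were dim. E2f1, an activator of replication genes, had 47.7, 63.8 and 39.0 on the NT-Co arrays, 84.1, 65.4 and 68.6 on the T-Co arrays and 21.1, 55.5 and 49.97 on the T-TSU arrays. E2f1 was highest in T-Co, without a call against NT-Co (0.49 ± 0.41, limma adjusted p = 0.546) or between T-TSU and T-Co (-0.76 ± 0.41, 0.563). Foxm1, which drives mitotic genes, had 71.2, 98.3 and 65.6 on the NT-Co arrays, 91.2, 63.8 and 12.7 on the T-Co arrays and 112, 107 and 119.8 on the T-TSU arrays. Foxm1 was highest in T-TSU, and its 1.19 ± 0.49 above T-Co was not called (adjusted p = 0.416). On this probe set the difference rested largely on 1 dim array, T-Co replicate 13, without which it was 0.52. That of T-Co against NT-Co then went from -0.69 to -0.01. A second probe set of Foxm1 was at -1.79 ± 0.60 in T-Co against NT-Co (adjusted p = 0.0986), with overlapping groups. In T-TSU against NT-Co the second was at -0.83 ± 0.60, where the first was at 0.50 ± 0.49.

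No tested gene of mitosis was called. Cdk1, the kinase of mitotic entry, had 32.9, 49.99 and 93.6 on the NT-Co arrays, 69.2, 69.6 and 72.5 on the T-Co arrays and 66.6, 99.99 and 104 on the T-TSU arrays, with overlapping groups and differences of 0.33 ± 0.38 for T-Co (limma adjusted p = 0.665) and 0.64 ± 0.38 for T-TSU (0.448). Top2a, the topoisomerase that untangles sister DNA, had 60.4, 2.12 and 61.7 on the NT-Co arrays, 41.9, 52.7 and 33.5 on the T-Co arrays and 52.0, 81.9 and 43.6 on the T-TSU arrays, so 1 NT-Co array set its spread. Without that array, NT-Co replicate 10, its T-Co difference turned from 0.46 to -0.46. Mad2l1, of the spindle checkpoint, had 103, 83.4 and 99.8 on the NT-Co arrays, 48.5, 127 and 61.6 on the T-Co arrays and 115, 103 and 108 on the T-TSU arrays. Aurka, an Aurora kinase, had 53.1, 33.2 and 65.0 on the NT-Co arrays, 18.0, 57.5 and 85.1 on the T-Co arrays and 56.0, 7.77 and 53.3 on the T-TSU arrays. Both overlapped between T-Co and NT-Co, as did Cdc20, an activator of the anaphase-promoting complex, at -0.68 ± 0.52 and the centromeric histone Cenpa at -0.36 ± 0.32.

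Another 13 members, most of them mitotic, lay below the filter, with intensities between 0.879 and 82.0. Mki67, the marker of cycling cells, had 4.60, 31.8 and 44.0 on the NT-Co arrays, 39.0, 82.0 and 34.2 on the T-Co arrays and 52.8, 22.7 and 9.44 on the T-TSU arrays. Ccna2, cyclin A2, had 5.01, 46.8 and 44.0 on the NT-Co arrays, 3.11, 40.4 and 60.3 on the T-Co arrays and 18.4, 44.3 and 29.1 on the T-TSU arrays. In both, arrays of 1 group differed several-fold and the groups overlapped. With the filter dropped, limma called 0 of these 13 in any of the 3 comparisons, with 1 at an unadjusted p under 0.05 in T-Co against NT-Co and 2 in each of the others. Of all 22626 probe sets in that fit, 886 were called in T-Co against NT-Co, 549 in T-TSU against NT-Co and 0 in T-TSU against T-Co. With so few called among all, 0 of 13 does not set these members apart. The smallest adjusted p was that of Bub1, a checkpoint kinase, in T-TSU against NT-Co (1.88 ± 0.46, adjusted p = 0.0572). Bub1 read 0.879, 3.37 and 4.53 on the NT-Co arrays, 24.7, 12.8 and 3.41 on the T-Co arrays and 36.6, 23.8 and 35.5 on the T-TSU arrays, around or below the filter on every array. Most of these members read around or below the filter in every group, so the absence of a call does not show that they did not differ.

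**Figure D4:**
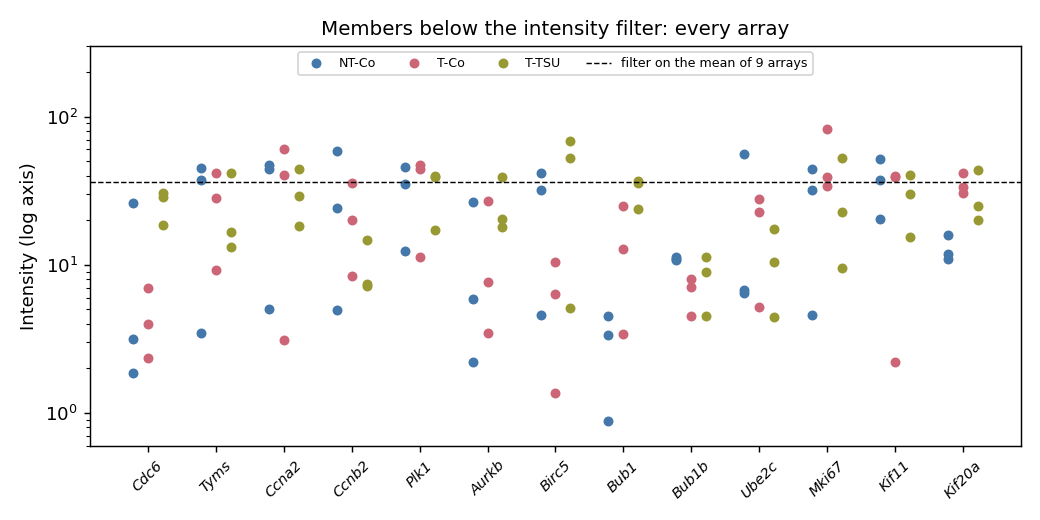
Intensity on a log axis of the 13 members below the filter, 1 point per array, coloured by group. The dashed line is the filter, which was applied to the mean of the 9 arrays, and most points of the 3 groups lie around or below it, from 0.879 to 82.0.

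Of 136 other cell cycle genes in a list of the pathway, 122 had a probe set and 90 were tested. In T-Co against NT-Co 4 rose and 3 fell, 7.78% against 6.32% of all genes, with a median difference of -0.19. In T-TSU against NT-Co 3 rose and 0 fell, 3.33% against 3.61% of all genes, with a median of -0.04. In T-TSU against T-Co limma called 0, where 0.0542% of all genes were called, with a median of 0.09. An unadjusted p under 0.05 was found for 11 of the 90, and for 1057 of all 9225 genes. Of 34 tested replication genes 1 rose and 1 fell in T-Co, 5.88% against 6.32% of all genes. Of the 34, 24 (70.6%) had a difference below 0, against 51.7% of all genes, with a median of -0.25. Of 28 tested mitosis genes 0 were called in T-Co and 1 rose in T-TSU against NT-Co, 3.57% against 3.61% of all genes.

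Wee1, the mitosis gene that rose, encodes the kinase that holds Cdk1 inactive, and is also known as an output gene of the circadian clock. Wee1 had intensities of 40.4, 68.8 and 61.8 on the NT-Co arrays, 89.4, 176 and 77.9 on the T-Co arrays and 629, 425 and 308 on the T-TSU arrays. On this probe set the 3 groups did not overlap in any pairing. On the second, T-Co (68.2, 37.0 and 58.8) overlapped NT-Co (2.52, 57.3 and 53.4). Wee1 rose by 2.80 ± 0.34 in T-TSU against NT-Co (6.95-fold, limma adjusted p = 0.00112), and passed under 19 of 19 alternatives. Its second probe set rose too, by 2.67 ± 0.61 (adjusted p = 0.0288). Against T-Co the difference of 1.94 ± 0.34 was not called (adjusted p = 0.0651, 0.0426 to 0.309 over the alternatives). It passed under 2 of 19 alternatives, without T-Co replicate 10 (0.0426) and with the pseudocount at the 30th percentile (0.0468). T-Co differed from NT-Co by 0.86 ± 0.34 (0.167).

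Of 28 tested G1/S regulators, 3 rose and 2 fell in T-Co, 17.9% against 6.32% of all genes. In T-TSU against NT-Co 2 rose and 0 fell, 7.14% against 3.61% of all genes. Both shares rest on few genes of a list chosen with earlier results known. They count Cdkn2d, which passed the filter through the groups in which it is high. Without the intensity trend all these calls were lost, as given below. Tob1, an antiproliferative protein, rose by 1.03 ± 0.21 in T-Co (limma adjusted p = 0.0122) and by 0.97 ± 0.21 in T-TSU (0.0213), from 1314 ± 225 in NT-Co to 2678 ± 399.6 and 2628 ± 791 (mean ± SD, n = 3). Its T-Co call was lost on leaving out NT-Co replicate 11 (0.0595), and its T-TSU call without NT-Co replicate 10 (0.0729) or 11 (0.0973) or T-TSU replicate 12 (0.0612) or 14 (0.0822). Btg2, of the same family, rose by 1.96 ± 0.43 in T-Co (adjusted p = 0.0185), lost without NT-Co replicate 10 (0.0570) or 11 (0.0825), and differed by 1.23 ± 0.43 in T-TSU (0.152). Cdkn2d, encoding the Cdk4 inhibitor p19, rose by 2.00 ± 0.50 in T-Co (adjusted p = 0.0336) and by 2.02 ± 0.50 in T-TSU (0.0441). Its NT-Co intensities of 11.8, 12.2 and 56.6 lay mostly below the filter, so it passed the filter through the groups in which it is high. The calls were lost without the filter (0.0516 and 0.0662) and in all under 8 and 12 of 18 alternatives, among them without NT-Co replicate 8 (0.115 and 0.146) or 10 (0.0924 and 0.130) or T-Co replicate 10 (0.0686 and 0.0537). The T-Co call was also lost without T-Co replicate 13 (0.112), and the T-TSU call without T-Co replicate 9 (0.0517) or T-TSU replicate 2 (0.144), 12 (0.127) or 14 (0.0693).

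Of the replication genes, Cdc45 rose and Dtymk fell. Cdc45, a partner of the Mcm ring at the fork, rose by 1.65 ± 0.45 in T-Co (limma adjusted p = 0.0472), from 19.6, 12.5 and 9.93 in NT-Co to 57.6, 58.7 and 63.4. It passed the filter only through the tumour-bearing groups, and this call was lost under 14 of 18 alternatives, every one that left out an array among them (0.0599 to 0.133). Dtymk, which makes thymidine diphosphate, fell by 0.98 ± 0.22 in T-Co (adjusted p = 0.0214), from 975 ± 121 in NT-Co to 501 ± 145, with 746 ± 169 in T-TSU. Its other 2 probe sets were at -1.01 ± 0.20 (adjusted p = 0.0102) and -0.70 ± 0.22 (0.0784). The Dtymk call was lost on leaving out NT-Co replicate 10 (0.0591) or 11 (0.0970) or else T-Co replicate 13 (0.0615).

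Both G1/S regulators that fell in T-Co are cyclins. Ccnh, the cyclin of the CDK-activating kinase, fell by 0.59 ± 0.14 (limma adjusted p = 0.0239), and its other 2 probe sets were at -0.53 ± 0.16 and -0.80 ± 0.28. The Ccnh call was lost on leaving out NT-Co replicate 8 (0.0767), 10 (0.0515) or 11 (0.113) or else T-Co replicate 10 (0.0618). Ccng1, cyclin G1, a p53 target, fell by 0.68 ± 0.17 (adjusted p = 0.0325), while its other 2 probe sets were at 0.02 ± 0.18 and -0.28 ± 0.18. The Ccng1 call was lost on leaving out NT-Co replicate 8 (0.0950), 10 (0.0773) or 11 (0.118) or else T-Co replicate 10 (0.0560) or 13 (0.0976). Without the intensity trend the T-Co calls of Tob1 (0.0607), Btg2 (0.0706), Cdkn2d (0.0697), Dtymk (0.0718), Ccnh (0.0668) and Ccng1 (0.0755) were lost, as were the T-TSU calls of Tob1 (0.0904) and Cdkn2d (0.0862). The beta-actin ratio, but not that of Gapdh, separated NT-Co from T-Co here too, and its part was not tested.

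**Figure D5:**
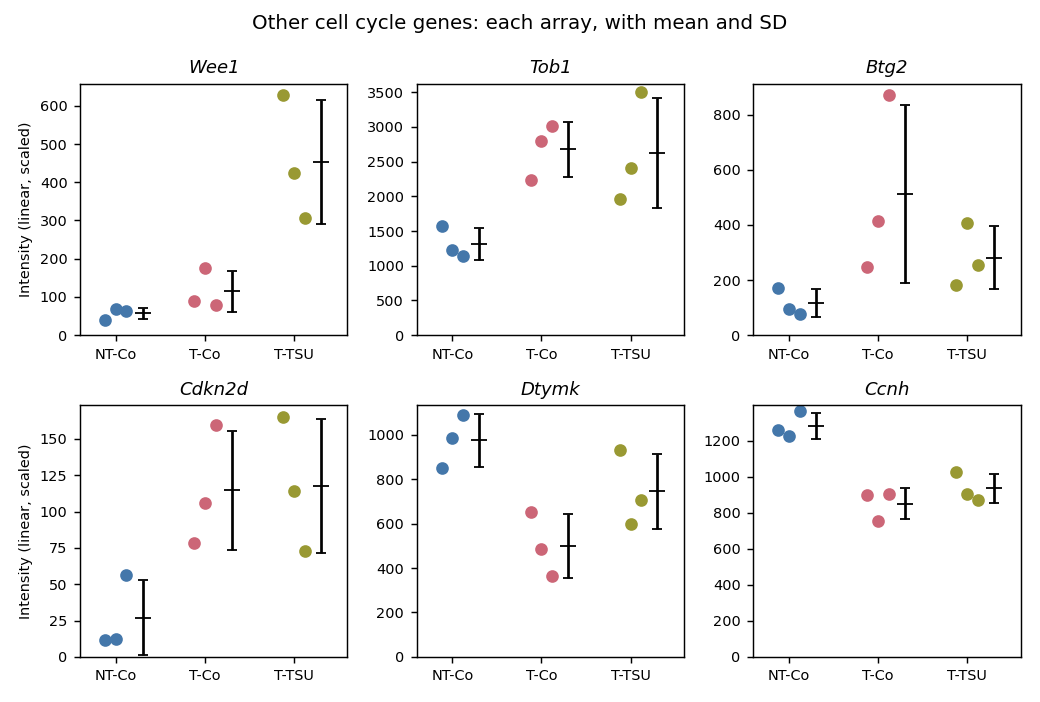
Linear scaled intensity of Wee1, Tob1, Btg2, Cdkn2d, Dtymk and Ccnh (brightest probe set), 1 point per array by group, with mean and SD (n = 3). Wee1 stands at 308 to 629 in T-TSU, above every other array, and Ccnh is higher on every NT-Co array than on any other.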

How the data were processed

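Liver RNA of 9 samples was measured on 1-colour 3' expression arrays after one-cycle biotin labelling of 5 µg of RNA, per the labels' protocols. The deposited values are linear intensities, 1 per probe set and array, whose trimmed mean (without 2% of values at each end) was 500.3 on every array. Which software summarised and scaled them is not given here by any source used, and no detection calls were used. Of 22626 probe sets without controls, 20380 carried 1 gene in the platform annotation, 691 several and 1555 none.

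The deposited intensities were analysed as log2(intensity + 7.92), the added constant being the 10th percentile, so fold changes of dim genes are understated. Probe sets under the 30th percentile of the mean log2 value (near an intensity of 36.2) were removed, and 15838 remained. The means of the 3 groups were estimated from the 9 arrays together by limma 3.58.1 (R 4.3.3), with an intensity trend and 6 residual degrees of freedom. Two-sided p-values were adjusted by Benjamini-Hochberg across the 15838, with a threshold of 0.05. A gene was represented by its brightest probe set. The script was tested on simulated data.

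Members, gene lists and tests were chosen with earlier results of these arrays known. Every array value is given for members that passed, for the 5 smallest p in each direction and comparison, and for standard markers of cycling; Ccnd3, Cdk4, Ccne1, Rrm2 and Bub1 were added after their values were seen. Other pathway genes are named where they passed, at most 4 per list, comparison and direction, by smallest p. Alternatives changed the pseudocount, filter, normalization, variance model, samples, array weights, probe set and replicates. The number of arrays limits the precision.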

Additional observations from a re-analysis of the deposited data

How the results depend on the processing

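No paired analysis was made because the labels state no pairing of samples between groups. Of the members 2 were called in T-Co against NT-Co, against 0 without the filter, 1 with the filter at the 50th percentile, 0 with the arrays of the 2 groups only and 0 to 1 when each array was left out. In T-TSU against NT-Co 2 were called, against 1 without the intensity trend and 1 to 2 with an array left out, and by the F test 2 against 1 to 2. In T-TSU against T-Co the count was 0 under every alternative run, 0 to 0 with an array left out. Of the other cell cycle genes 7 were called in T-Co against NT-Co (1 without the trend, 1 to 6 with an array left out), 0 in T-TSU against T-Co (1 with the pseudocount at the 30th percentile, 0 to 1) and 3 in T-TSU against NT-Co (5 with the arrays of the 2 groups only, 1 to 6).

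Of all probe sets 1036 were called in T-Co against NT-Co (473 without the trend, 445 to 1016 with an array left out) and 609 in T-TSU against NT-Co (265 without the trend, 1026 with array quality weights, 287 to 793). In T-TSU against T-Co 8 were called, against 26 with the pseudocount at the 30th percentile, 0 without the filter, 1 after quantile normalization, 0 with arrays centred on their median, 0 without the trend, 14 with a robust trend, 0 with the arrays of the 2 groups only, 5 with array weights and 0 to 58 with an array left out. The cause of these shifts was not tested.

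Signs turned as follows. In T-TSU against T-Co, Aurka was at 0.21 without T-TSU replicate 12 and Pcna at -0.23 without T-Co replicate 10. Other probe sets gave 0.57 for Ccnd1, -0.072 for Ccnd2, -0.17 for Mcm3 and 0.11 for Mcm7. In T-TSU against NT-Co, Aurka was at 0.14 without T-TSU replicate 12, Mcm6 at 0.43 without NT-Co replicate 11 and Top2a at -0.081 without NT-Co replicate 10. Other probe sets gave 0.45 and 0.052 for Ccnd2, 0.17 for Ccng1, -0.83 for Foxm1 and -0.54 for Mcm2. In T-Co against NT-Co, Top2a was at -0.46 without NT-Co replicate 10, and other probe sets gave -0.39 for Ccnd1 and 0.023 for Ccng1. With each array left out in turn, Aurka ran from -0.98 to 0.21 in T-TSU against T-Co and from -0.87 to 0.14 in T-TSU against NT-Co, Mcm6 from -0.66 to 0.43, and Top2a from -0.46 to 0.93 in T-Co and from -0.081 to 1.32 in T-TSU. Another 46 differences without a call changed sign by less than 1 SE, of 1737 values. Signal near background limits the 13 dim members, and 3 arrays a group limit all calls.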
